A study of Mus musculus with 2 samples.

Results

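Integrin and cadherin genes encode the receptors that fix cells to the extracellular matrix and to each other. Their transcripts were compared between irradiated and nonirradiated mouse lung. The genes were chosen by symbol: every cluster of probes of the main category that carries a single symbol of the form Itga or Itgb followed by a number or letter, or Cdh followed by a number, leaving out Cdh5 of endothelial cells. This gave 40 genes of 19049 with a symbol, 21 integrin and 19 cadherin genes, measured by 44 clusters of 11 to 56 probes each. Clusters of a symbol were averaged.

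Integrins are paired receptors of an alpha and a beta chain. The pairing decides the ligand, so that some pairs hold epithelial cells to basement membrane laminins, others bind collagen, fibronectin or vitronectin, and those of white blood cells bind receptors on vessel walls. Several pairs that contain the alpha-V chain also release active TGF-beta from its latent complex, a step studied in lung fibrosis. Cadherins bind their like on the neighbouring cell and are tied to actin through catenins. Epithelia carry E-cadherin (Cdh1), whereas fibroblasts, muscle and nerve carry other members.

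The irradiated array held lung RNA of male C57BL/6 mice, an inbred strain, exposed to gamma rays over the chest at 7 weeks of age at 0.81 Gy/min, and the nonirradiated array that of male C57BL/6 mice without exposure. Lungs were collected after 25 weeks. The irradiated mice are labelled as overexpressing alpha-smooth muscle actin, and the sources used here give neither the total dose nor the number of mice behind an array. There was 1 array for each group, so no value has an error from replicates and nothing was tested. What follows describes these 2 arrays, whose number sets the limit of precision.

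Values are the authors' RMA values on the log2 scale, which ran from 1.51 to 13.78 in the irradiated and from 1.69 to 13.83 in the nonirradiated array. A gene was called bright when its value reached the array median over clusters with 1 symbol in at least 1 array (7.23 in both). The tissue label was checked against its markers: Sftpc, a surfactant protein, read 13.39 in the irradiated and 13.42 in the nonirradiated array, and Scgb1a1 of club cells 13.42 in the irradiated and 13.41 in the nonirradiated array. Smooth muscle markers were higher in the irradiated array in 8 of 8 cases (Acta2 at 11.42 in the irradiated and 10.78 in the nonirradiated array), as were 9 of 10 heart muscle and 7 of 7 adipocyte markers. Of these, 1 heart muscle and 3 adipocyte markers were bright through the irradiated array alone and could only be higher, and of the markers bright in both arrays 8 of 9 and 4 of 4 were higher. Epithelial markers were lower in 16 of 17 cases and mesothelial markers in 5 of 5.

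Bright integrin and cadherin genes differed between the arrays about as much as bright genes in general. Of the 40 genes, 25 were bright and 15 dim, and 0 of the 25 differed at least 1.5-fold, where 2.78% of all 9957 bright genes did. At a log2 difference of 0.32 or more, 4 of the 25 were counted (16.0%, against 15.9% of all bright genes), namely Cdh16, Itga3, Cdh3 and Cdh13, and each was lower in the irradiated array. Over all bright genes 10.3% were lower by that much and 5.63% higher. Of the 4, Cdh3 was bright through the nonirradiated array alone and so could only be lower. The median log2 difference of the 25 was -0.06, irradiated minus nonirradiated, and that of all bright genes -0.05. For scale, 18 bacterial hybridisation control rows had differences with an SD of 0.14, and several clusters of 1 bright gene scattered with a pooled SD of 0.29. The differences of 13 of the 25 genes were smaller than the first value, and those of 20 were smaller than the second, as were those of 79.8% of all bright genes. Other control rows scattered more than the bacterial ones, with an SD of 0.31 for poly-A spikes, 0.24 for ERCC and 0.21 for antigenomic background rows.

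**Figure D1:**
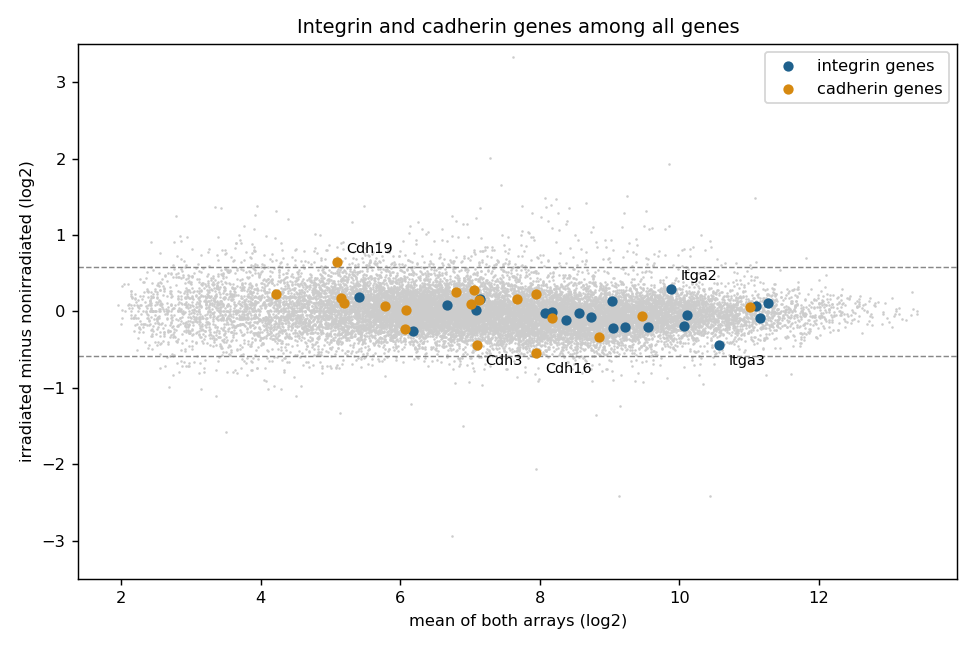
Log2 difference, irradiated minus nonirradiated, against the mean log2 value of both arrays, for all genes with a symbol (grey), integrin genes (blue) and cadherin genes (orange). Dashed lines mark 1.5-fold, which a single coloured point, the dim Cdh19, passed.

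Among integrins of epithelial cells, Itga3 was the single gene found by symbol. It encodes the alpha chain of a laminin receptor of epithelia, and its cluster lies on chromosome 11 (95044474 to 95076801, minus strand, GRCm38). Itga3 read 10.35 in the irradiated and 10.79 in the nonirradiated array, a 1.36-fold lower value, and 7.10% of bright genes differed at least as much. In a bulk sample, fewer cells of a type and less RNA per cell cannot be told apart.

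Further epithelial integrins were found by position, a step chosen after the data were seen. Their clusters carry no symbol in the deposited annotation but cover at least 90% of the RefSeq span of a gene in the same build, and they are named here by that span alone. The cluster over Itgb4 (chromosome 11, 115974709 to 116008412, plus strand), the beta chain of hemidesmosomes, read 8.19 in the irradiated and 8.50 in the nonirradiated array. The cluster over Itgb6 (chromosome 2, 60598292 to 60722643, minus strand), the epithelial partner of the alpha-V chain that activates latent TGF-beta, read 8.92 in the irradiated and 9.24 in the nonirradiated array. Both were thus lower in the irradiated array, with log2 differences of -0.31 and -0.32. The cluster over Itga6 (chromosome 2, 71745616 to 71858416, plus strand), the alpha chain that pairs with Itgb4, was higher instead, at 10.93 in the irradiated and 10.53 in the nonirradiated array, or 1.32-fold. This cluster starts upstream of the RefSeq gene. The Itga6 protein is also made by endothelium and platelets, as partner of Itgb1. With these clusters added, 3 of 4 epithelial integrins were lower and 1 was higher, with a median log2 difference of -0.31. Of all bright genes 59.7% were lower.

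Promoter sequence is shown for Itga3 and Itgb6, epithelial integrin genes that were both lower in the irradiated array and that have entries in the RefSeq promoter table (GRCm38.p6, 250 bases before to 50 after a start). For each, the start nearest to the upstream end of the array's cluster was taken, chr11:95076665-95076964 and chr2:60722554-60722853, both on the minus strand. Capitals mark the E-box CAGGTG or, on the other strand, CACCTG, the motif through which the Snail and Zeb repressors are known to act on the Cdh1 promoter.
Itga3: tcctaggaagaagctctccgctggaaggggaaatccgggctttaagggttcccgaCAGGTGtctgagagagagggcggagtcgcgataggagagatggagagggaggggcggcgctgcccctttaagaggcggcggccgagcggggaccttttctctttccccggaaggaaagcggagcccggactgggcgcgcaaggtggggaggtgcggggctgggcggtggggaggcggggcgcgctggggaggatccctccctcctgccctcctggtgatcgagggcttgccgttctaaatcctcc
Itgb6: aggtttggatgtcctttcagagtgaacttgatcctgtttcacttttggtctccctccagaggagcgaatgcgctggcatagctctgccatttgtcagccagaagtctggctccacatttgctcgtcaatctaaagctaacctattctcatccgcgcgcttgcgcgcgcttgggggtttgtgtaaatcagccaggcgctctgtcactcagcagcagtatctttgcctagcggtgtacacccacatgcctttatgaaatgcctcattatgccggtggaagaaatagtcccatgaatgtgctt
The Itga3 window holds 1 such motif, beginning 195 bases before the start, and the Itgb6 window 0. Of all 32851 promoters in the table, 20.2% hold at least 1, so the match is a description of these letters and not of binding.

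The laminin chains that these epithelial receptors bind were lower in the same array. Lamb3 read 9.06 in the irradiated and 9.69 in the nonirradiated array. Lama3 read 9.99 in the irradiated and 10.57 in the nonirradiated array. Lamb3 was 1.56-fold lower, the largest difference among the matrix ligands examined, and Lama3 1.49-fold lower. Of the partners in the hemidesmosome, the plaque that anchors epithelium to the basement membrane, Plec (plectin) differed by -0.20 and Cd151, a tetraspanin bound to Itga3 and Itga6 pairs, by -0.15. The cluster over Dst, whose epithelial form is a plaque protein, differed by 0.15. The epithelial markers were lower in the same array, with a median log2 difference of -0.32 over 17 bright genes (range -0.89 to 0.0062) and median values of 10.64 in the irradiated and 10.73 in the nonirradiated array. Their part in the integrin and laminin values was not tested.

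**Figure D2:**
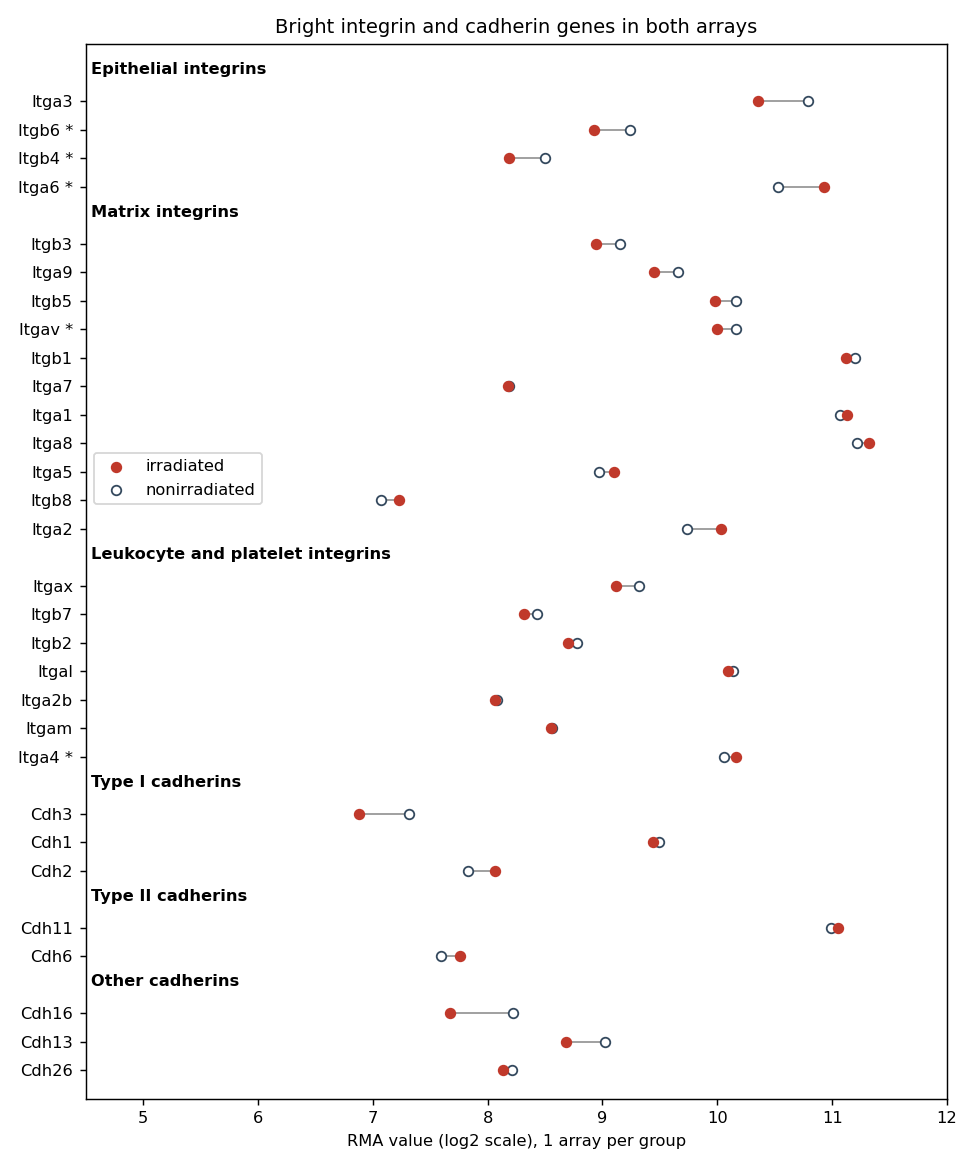
RMA values on the log2 scale of the bright integrin and cadherin genes, irradiated array (filled) and nonirradiated array (open), sorted by difference within each class. Cdh1 and Itgb2 are averages of 2 clusters, an asterisk marks a cluster placed by position, and probes differ between genes, so levels can be compared within a gene and not between genes. The widest gaps are those of Cdh16, Itga3, Cdh3 and, in the other direction, Itga6.

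Matrix integrins, the receptors of fibroblasts, muscle and many other cells, were split: 5 of 10 bright genes were higher and 5 lower in the irradiated array, with a median log2 difference of 0.03. Among the higher ones, Itgb8 was bright through the irradiated array alone and so could only be higher. With the intensity trend of all genes removed, 6 were higher and 4 lower. The 2 bright collagen-binding chains were among the higher ones. Itga2, a collagen-binding chain of epithelium, fibroblasts and platelets (chromosome 13, 114835912 to 114932041, minus strand), read 10.03 in the irradiated and 9.74 in the nonirradiated array, 1.23-fold higher. No other bright gene of the 25 was as far above its nonirradiated value. Itga1, the other abundant collagen-binding chain of mesenchymal cells, read 11.13 in the irradiated and 11.06 in the nonirradiated array. Itga11, a collagen receptor chain of fibroblasts, was dim, at 6.72 in the irradiated and 6.63 in the nonirradiated array, and the cluster over Itga10, of cartilage, was dim and differed by -0.05. Platelet markers were higher in 5 of 7 bright cases and fibroblast markers in 5 of 6, with medians of 0.24 and 0.10. Of the 5 fibroblast markers bright in both arrays, 4 were higher. The 2 lower platelet markers were Pf4 (-0.09) and Gp5 (-0.19). Epithelial markers went the other way: 16 fell below their nonirradiated values and 1 lay above, around a median of -0.32. The part of epithelium, fibroblasts and platelets in the Itga2 value was not tested.

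Among chains that bind fibronectin and related ligands, Itga5, of the main fibronectin receptor, read 9.10 in the irradiated and 8.97 in the nonirradiated array. Itga8, which binds nephronectin and marks contractile and interstitial cells of the lung, read 11.32 in the irradiated and 11.22 in the nonirradiated array. Its ligand Npnt read 12.40 in the irradiated and 12.29 in the nonirradiated array. These genes were higher by 1.10-fold, 1.08-fold and 1.08-fold, differences below the SD of the hybridisation controls. Itga8 thus stood close to its nonirradiated value in the same array in which smooth muscle markers had a median difference of 0.61. Itga9, whose pair binds tenascin C and osteopontin, was lower at 9.45 in the irradiated and 9.66 in the nonirradiated array. Its ligand genes differed in the other direction: Tnc by 0.39, from below the array median in the nonirradiated lung, and the cluster over Spp1, osteopontin, by 0.48. Itga7, the laminin receptor chain of muscle, read 8.18 in the irradiated and 8.19 in the nonirradiated array (a log2 difference of 0.059 with the trend removed), while heart muscle markers had a median difference of 0.82.

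The chains of the alpha-V pairs, the group tied to TGF-beta activation, lay mostly below their nonirradiated values, as did 59.7% of all bright genes. The cluster over Itgav itself read 10.00 in the irradiated and 10.16 in the nonirradiated array. Of its beta partners, Itgb5, the vitronectin receptor chain, read 9.98 in the irradiated and 10.16 in the nonirradiated array. Itgb3, shared with the platelet fibrinogen receptor, read 8.94 in the irradiated and 9.16 in the nonirradiated array. Itgb8, which with alpha-V binds latent TGF-beta, was the exception at 7.23 in the irradiated and 7.07 in the nonirradiated array, and since it was bright through the irradiated array alone it could only be higher. Together with Itgb6, 3 of the 4 beta chains that pair with alpha-V besides Itgb1 were lower, with log2 differences of -0.19 (Itgb5), -0.21 (Itgb3) and -0.32 (Itgb6). Tgfb1 and Tgfb3, whose latent forms these pairs bind, differed by -0.04 and 0.04. Itgb1, the common beta chain of most matrix integrins, read 11.12 in the irradiated and 11.20 in the nonirradiated array.

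Leukocyte and platelet integrins were lower in 6 of 6 bright cases, by small amounts, with a median log2 difference of -0.06, but in 4 of 6 with the intensity trend removed, when Itgam and Itga2b lay at 0.058 and 0.042. The share of all bright genes that were lower, before the trend was removed, was 59.7%. Itgax, the alpha chain of dendritic cells and alveolar macrophages, differed most among the gene averages, at 9.12 in the irradiated and 9.32 in the nonirradiated array. Itgb7, the partner of Itga4 and Itgae on lymphocytes, read 8.32 in the irradiated and 8.43 in the nonirradiated array. Itgal, a leukocyte integrin chain that binds ICAM proteins, read 10.09 in the irradiated and 10.14 in the nonirradiated array. Itgam, its counterpart on neutrophils and macrophages, read 8.55 in the irradiated and 8.56 in the nonirradiated array, and Itga2b, the platelet alpha chain, 8.06 in the irradiated and 8.09 in the nonirradiated array. The differences of Itgal, Itgam and Itga2b lay within the SD of the hybridisation controls. Of the other genes of the class, Itgae, the lymphocyte chain that binds E-cadherin, Itgad and Itgb2l were dim and differed by 0.02, -0.26 and 0.19. The cluster over Itga4, a chain of lymphocytes and monocytes, differed by 0.11. With that bright cluster added, 6 of 7 were lower and 1 was higher, with a median of -0.05.

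Itgb2, the beta chain that Itgal, Itgam and Itgax share, depended on which cluster was read. Its long cluster (chromosome 10, 77530252 to 77565686, plus strand) read 10.10 in the irradiated and 10.42 in the nonirradiated array, a log2 difference of -0.32. A short cluster on the opposite strand at the end of the gene (77564634 to 77565675) read 7.30 in the irradiated and 7.14 in the nonirradiated array. The average of both differed by -0.08. General leukocyte markers differed by 0.0053 in the median over 5 genes, with Ptprc (CD45) at 0.04 and Coro1a, an actin regulator of leukocytes, at -0.41. Markers of T and NK cells were higher in 7 of 8 cases and those of B and plasma cells in 6 of 6, while 4 of 7 for monocytes and interstitial macrophages and 5 of 9 for alveolar macrophages were lower (3 and 4 with the trend removed, and 4 of 8 alveolar macrophage markers bright in both arrays). Dendritic cell markers were higher in 5 of 5 cases, with a median of 0.13, in the array in which Itgax was lower. Neutrophil markers were lower in 5 of 7 cases, with S100a8, a calcium-binding protein of neutrophils, at -0.53, while Ngp, of neutrophil granules, was bright through the irradiated array alone, at 8.28 in the irradiated and 6.28 in the nonirradiated array. The part of cell numbers in the integrin values was not tested. On the ligand side, Icam1, which the Itgb2 pairs bind, was 1.29-fold lower at 11.56 in the irradiated and 11.92 in the nonirradiated array, and Vcam1, bound by Itga4 pairs, was 1.12-fold higher at 9.79 in the irradiated and 9.63 in the nonirradiated array.

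**Figure D3:**
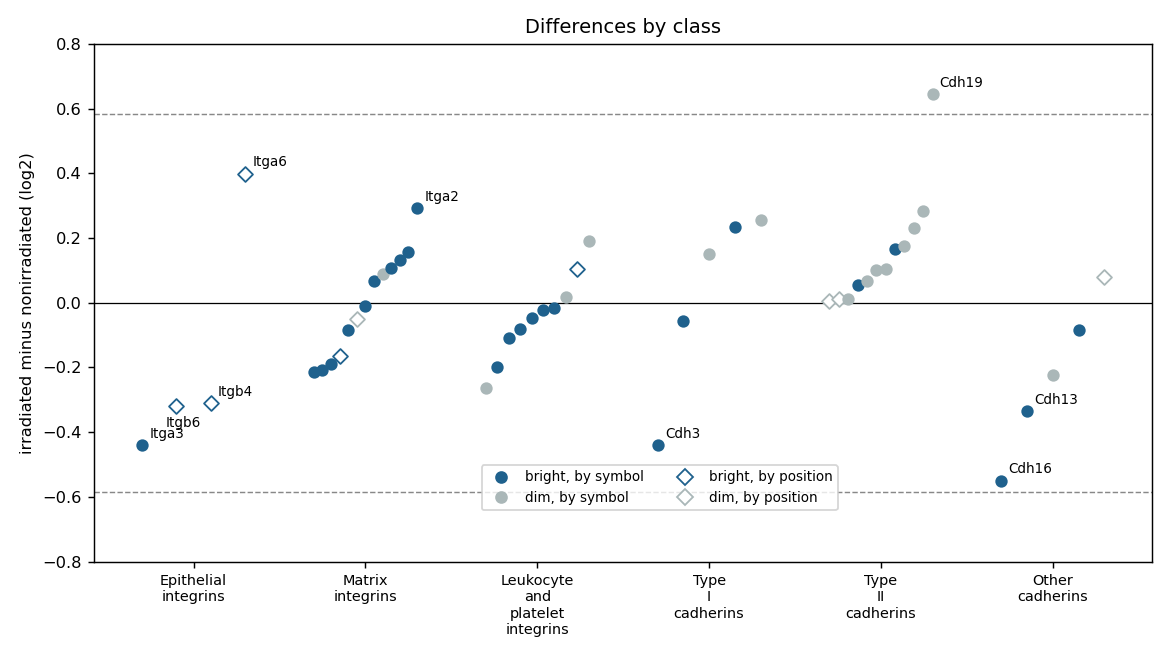
Log2 difference, irradiated minus nonirradiated, of every integrin and cadherin gene by class, found by symbol (circles) or by position (diamonds), bright (blue) or dim (grey). Dashed lines mark 1.5-fold. Type II cadherins found by symbol lie above 0 in 10 of 10 cases (9 with the intensity trend removed), 8 of them dim. Of all dim genes 50.9% lie above 0. Leukocyte and platelet integrins lie between -0.26 (Itgad) and 0.19 (Itgb2l), both dim.

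Cdh1, E-cadherin, depended on which cluster was read. Its long cluster (chromosome 8, 106603351 to 106670246, plus strand) read 11.29 in the irradiated and 11.67 in the nonirradiated array, a log2 difference of -0.38. A short cluster with the same symbol, on the opposite strand at the end of the gene (106668884 to 106670242), read 7.58 in the irradiated and 7.32 in the nonirradiated array, a log2 difference of 0.26. The average of both, which the choice by symbol prescribes, differed by -0.06. Cdh3, P-cadherin of basal epithelium, read 6.88 in the irradiated and 7.32 in the nonirradiated array, 1.36-fold lower. It was bright through the nonirradiated array alone and so could only be lower. Cdh16, first known as a kidney cadherin (chromosome 8, 104601913 to 104624396, minus strand), had the largest difference of any bright gene of the 25, at 7.68 in the irradiated and 8.23 in the nonirradiated array, or 1.46-fold lower. A difference as large was seen in 3.45% of bright genes. Cdh26, which in human cells binds integrins, read 8.13 in the irradiated and 8.21 in the nonirradiated array, a difference within the SD of the hybridisation controls.

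Cdh13, a cadherin held by a lipid anchor that binds adiponectin, was lower at 8.68 in the irradiated and 9.02 in the nonirradiated array, 1.26-fold. The gene of that ligand, Adipoq, differed by 0.97, from below the array median in the nonirradiated lung. Cdh2, N-cadherin of heart muscle, nerve and fibroblasts, read 8.06 in the irradiated and 7.83 in the nonirradiated array, 1.18-fold higher. Heart muscle markers, whose median values were 9.94 in the irradiated and 8.76 in the nonirradiated array, moved with it, and their part was not tested. Cdh11, of fibroblasts, read 11.05 in the irradiated and 10.99 in the nonirradiated array, and Cdh6 7.76 in the irradiated and 7.59 in the nonirradiated array. The Cdh11 difference lay within the SD of the hybridisation controls. The fibroblast marker Pdgfra differed by -0.02 and Col1a1 by 0.13.

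Most cadherins were dim. Of the 15 dim integrin and cadherin genes 13 had a higher irradiated value and 2 a lower one (12 and 3 with the intensity trend removed), whereas 50.9% of all dim genes were higher. Their values ran from 4.33 to 7.20 in the irradiated and from 4.10 to 7.07 in the nonirradiated array. Cdh19, a cadherin of Schwann cells and their precursors (chromosome 1, 110889195 to 110977372, minus strand), read 5.42 in the irradiated and 4.78 in the nonirradiated array. At 1.56-fold it was the single gene of the 40 past 1.5-fold, where 3.27% of all genes with a symbol stood. It was also the single one in the authors' deposited table of clusters at 1.5-fold, with a log2 ratio of 0.65, and 0 of the 40 were in the table at 2-fold. Of all 20046 main clusters with 1 symbol, 3.48% were in the authors' deposited table at 1.5-fold and 0.499% in that at 2-fold. Both values lay below the median of the intron control rows, 6.58 in the irradiated and 6.33 in the nonirradiated array. Of the dim nerve and Schwann cell markers, Sox10 differed by 0.23, Prph by 0.02, Ngfr by -0.10 and S100b by -0.24. The part of these cells in the Cdh19 value was not tested.

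Of the type II cadherins found by symbol 10 of 10 were higher, 8 of them dim, with a median log2 difference of 0.13. The share that was higher was 50.9% over all dim genes and 39.8% over all bright genes. Among the dim cadherins found by symbol were Cdh12 (0.23), Cdh8 (0.17), Cdh9 (0.10) and Cdh22 (0.10), chiefly of the nervous system. The clusters over Cdh10 and Cdh18, placed by position and dim, differed by 0.012 and 0.0062. With the intensity trend removed, 9 of the 10 stayed above 0 and Cdh20 lay at -0.0018. The intron control rows, which measure no mature transcript, were themselves higher by 0.27 in the median, and their part in the dim values was not tested.

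**Figure D4:**
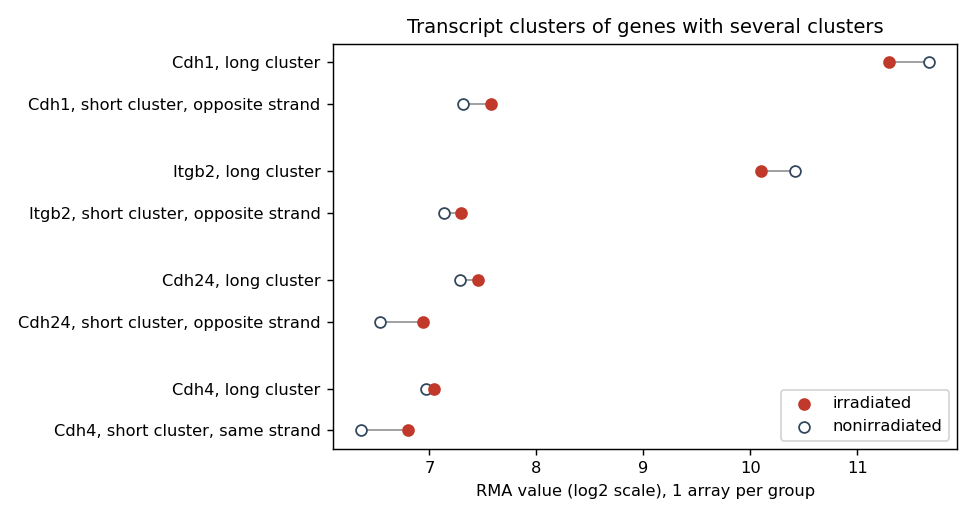
RMA values on the log2 scale of each transcript cluster of the 4 genes with several clusters, irradiated array (filled) and nonirradiated array (open). The long clusters of Cdh1 and Itgb2 were lower in the irradiated array and their opposite-strand clusters higher.

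Clusters on the opposite strand occurred in 3 of the 40 genes, and a further gene, Cdh4, had a short second cluster on its own strand. For Cdh24, the long cluster read 7.45 in the irradiated and 7.29 in the nonirradiated array, and the opposite-strand cluster 6.94 in the irradiated and 6.53 in the nonirradiated array. For Cdh4, of retina and brain, the long cluster read 7.05 in the irradiated and 6.97 in the nonirradiated array, and the short one 6.80 in the irradiated and 6.37 in the nonirradiated array. Each of these short clusters was thus higher in the irradiated array, by 0.16 to 0.44 on the log2 scale, whatever the long cluster did. Over all 230 genes with a spanning cluster and one on the opposite strand, 2 of them integrin or cadherin genes, 65.7% of the opposite-strand values were higher, with a median of 0.08, and 36.1% of the spanning ones, with a median of -0.08. The 2 differed in sign in 47.8% of these genes. When opposite-strand clusters were left out, Cdh1 and Itgb2 differed by -0.38 and -0.32, against -0.06 and -0.08 as averages.

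The partners of cadherins and integrins inside the cell differed by group. Desmosomes, junctions built from desmosomal cadherins, were lower in 4 of 4 bright genes, with a median log2 difference of -0.36 and 0 at 1.5-fold, where 59.7% of all bright genes were lower. The 4 dim ones found by symbol were higher, Dsc1 by 0.52, Dsg3 by 0.34, Dsc3 by 0.15 and Pkp1 by 0.03, and the median over all 8 was -0.15. Dsg2, a desmosomal cadherin, read 7.35 in the irradiated and 7.87 in the nonirradiated array, and Dsp, desmoplakin, 9.70 in the irradiated and 10.05 in the nonirradiated array. Of the plakophilins of the plaque, Pkp2 read 8.97 in the irradiated and 9.34 in the nonirradiated array, and Pkp3 7.26 in the irradiated and 7.59 in the nonirradiated array. Each of these 4 was lower in the irradiated array, by 1.26-fold to 1.44-fold, beside the epithelial markers, whose part was not tested. The catenins that link classical cadherins to actin differed less. Ctnnb1, beta-catenin, read 11.89 in the irradiated and 11.97 in the nonirradiated array. Ctnna1, alpha-catenin, differed by -0.03 and Ctnnd1, which binds cadherins near the membrane, by 0.13. Of 17 bright integrin adaptors 7 were higher and 10 lower, 0 at 1.5-fold, with a median of -0.05, and 9 and 8 with the intensity trend removed. Parvb, a parvin that joins integrin-linked kinase to actin, was highest at 0.22 and its relative Parva differed by -0.17. Talins Tln1 and Tln2, which switch integrins on, differed by -0.17 and -0.18, Ilk by 0.05 and the focal adhesion kinase gene Ptk2 by 0.12.

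**Figure D5:**
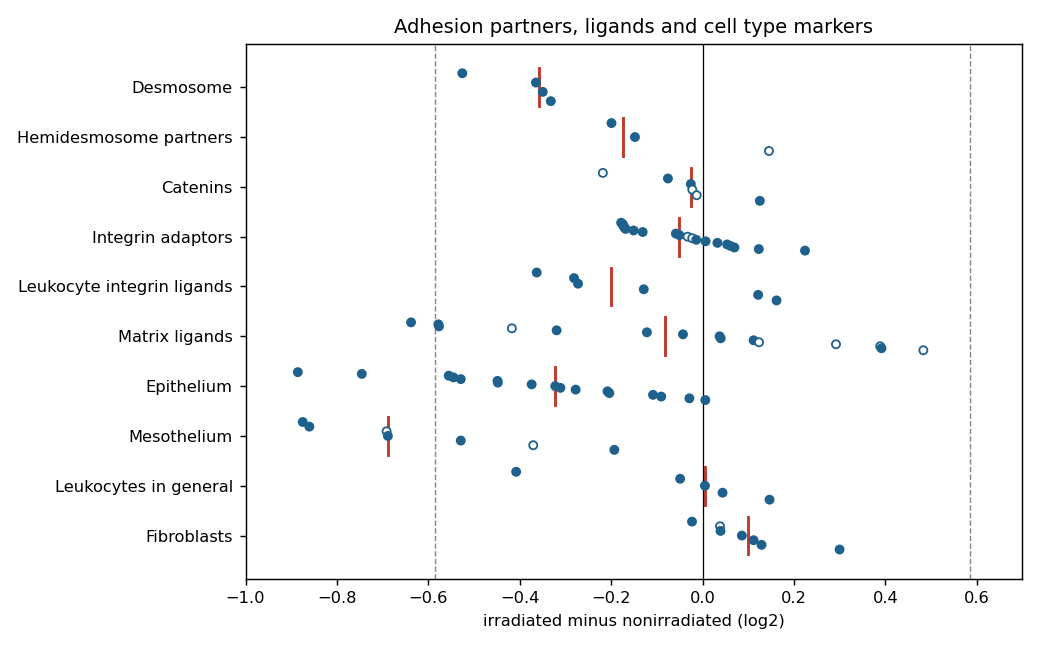
Log2 difference, irradiated minus nonirradiated, of bright genes of adhesion partners, ligands and cell type markers, found by symbol (filled) or by position (open), with the median of those found by symbol as a red bar. Dashed lines mark 1.5-fold. Desmosome, epithelium and mesothelium genes lie mostly below 0, whereas catenins and integrin adaptors lie around it.

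Matrix ligands ran in both directions, 4 higher and 6 lower of 10 bright genes by symbol (3 and 6 of those bright in both arrays). For these and the leukocyte integrin ligands below, the share of all bright genes that were lower was 59.7%. Besides the laminin chains and Tnc, Lama5 differed by -0.32, Vtn, vitronectin, by 0.04 and Mfge8, a ligand of alpha-V pairs, by -0.12. By position, the clusters over Fn1, fibronectin, and Nid1, which joins laminin to collagen, differed by 0.12 and 0.39, and that over Fbln5, an elastic fibre protein, by -0.42. Among 6 bright leukocyte integrin ligands, 2 were higher and 4 lower, with a median of -0.20 (2 and 3 of those bright in both arrays, with a median of -0.13). F11r, a junction protein of epithelium and endothelium, and its relative Jam3, known from human cells as ligands of Itgal and Itgam pairs, differed by -0.27 and -0.28, and Jam3 was bright through the nonirradiated array alone and so could only be lower.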

How the data were processed

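Total RNA of whole lung (300 ng) was labelled with biotin using an Affymetrix kit for whole-transcript arrays, as the labels' protocols state. The authors deposited RMA values, on the log2 scale, and the software was Affymetrix Expression Console, version 1.3.1, per the submitters' processing notes. RMA gives both arrays the same overall distribution, which hides any change common to most genes. In a workbook the authors give, for each row, the log2 ratio and its size as a fold of at least 1. Coordinates are those of GRCm38, the build in the deposited annotation.

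Of 41345 rows, the 20046 main rows with 1 symbol were averaged into 19049 genes, and brightness was the single further filter. Differences are irradiated minus nonirradiated, and a fold is the antilog of a difference without its sign. With 1 array in each group no p-value can be given. All 44 rows used are annotated as unique (cross-hybridisation type 1). RefSeq (GRCm38.p6) gave the spans for 9 further genes placed by position, 5 of them bright. Promoters in its table cover 26 of the 40 genes.

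The genes and lists were chosen with earlier results of these data known. Named are all bright members, dim ones at 1.5-fold, and up to 4 genes of each other list. Genes placed by position, the dim members below 1.5-fold, single clusters, and further partners, ligands and markers were added after their values were seen. Trend removal used lowess (span 0.3, statsmodels 0.14.6) and was run on simulated data with a linear trend. That simulation had less scatter than these arrays, so it does not show how well the trend was removed here. Some genes of the ligand and nerve marker lists are not reported here.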

Additional observations from a re-analysis of the deposited data

How the results depend on the processing

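No paired analysis was possible because each group holds 1 array. A sign change, or a move beyond the SD of the hybridisation controls (0.14), was counted as a change. The number of bright genes at 1.5-fold was 0 and became 1 (Cdh19) without the brightness limit and 4 at a log2 limit of 0.32. The epithelial integrin median of -0.44 rests on Itga3 alone and became 0.16 with Itga2 and Itgb8 counted as epithelial. That 0.16 is the value of Itgb8, which was bright through the irradiated array alone and so could only be higher. The matrix integrin median of 0.03 is too close to 0 for a direction: it was -0.0095 both with the brightness limit recomputed over rows of cross-hybridisation type 1 and with rows placed by position, -0.0088 with the limit at the 75th percentile, and -0.047 with chains of several classes moved. The cadherin median of -0.07 became 0.10 with dim genes included. With the intensity trend removed, Itga2b (0.042), Itga7 (0.059), Itgam (0.058) and Cdh20 (-0.0018) changed sign. Reading the brightest cluster moved Cdh1 to -0.38, Itgb2 to -0.32 and Cdh4 to 0.08. Of 240 values of single genes under these alternatives, 231 kept their sign and moved by less than 0.14. Most of the 240 could hardly change, so this count does not measure robustness. All 44 rows were of cross-hybridisation type 1, the series value table matched the workbook, and centring shifted every gene by the same small amount. The choice of cluster could move only the 4 genes with several clusters. Position and opposite-strand alternatives were chosen after seeing the data. Dim values limit most cadherins.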
